A study of Mus musculus with 10 samples.

Results

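The insulin-like growth factor (IGF) genes examined here were chosen by name, as the ligands Igf1 and Igf2, the receptors Igf1r and Igf2r, and the binding proteins Igfbp2, Igfbp3, Igfbp4, Igfbp5, Igfbp6 and Igfbp7. These 10 genes are 10 of the 29583 genes and loci in the deposited table. No threshold on a measured value entered the choice, but earlier results of these data were known when it was made. MC3T3-E1 cells, a mouse preosteoblast line from calvaria of newborn C57BL/6 mice, were cultured with 0, 100, 150 or 200 μM β-ecdysterone, a plant steroid, for 5 or 10 d, and their mRNA was sequenced. There was 1 library per dose and day, giving 2 libraries at 0 μM, 3 treated libraries of day 5 and 3 of day 10, plus 2 libraries labelled untreated (A-5 and B-4) with no dose or time. The labels name the line in the titles but give bone marrow mesenchymal stem cells as the source.

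IGF1 and IGF2 are secreted peptides that act through the IGF1 receptor, a tyrosine kinase that signals through IRS proteins, PI3 kinase and AKT. The IGF2 receptor, also the cation-independent mannose 6-phosphate receptor, binds IGF2 and carries it to lysosomes. In bone both ligands are made by osteoblasts and stored in the matrix, and the binding proteins hold them in complexes from which proteases release them.

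Library totals ran from 27108562 to 58218009 counts, so that 3 counts, the limit a count of 0 allows, stood for 0.0502 to 0.118 CPM (counts scaled to a common library size, with TMM factors). Such limits and the counting intervals given here cover counting error only. The untreated libraries stood apart from one another. Across 17213 genes, A-5 correlated more closely with the 0 μM libraries (Spearman's rho 0.979 to 0.983) than with treated ones (0.948 to 0.959), whereas B-4 correlated more closely with treated libraries (0.958 to 0.962) than with 0 μM (0.942 to 0.945). They enter only side comparisons, because the labels give them no time. The summed level of 10 osteoblast markers was 16800 to 34000 CPM in treated cells and 22000 to 26400 CPM at 0 μM, mostly collagen I, and single markers went different ways. Mean levels at 0 μM and in treated cells were 9370 and 9410 CPM for Col1a1 and 13000 and 14000 for Col1a2. Higher in treated cells were Alpl (0.0316 and 43.0), Sp7 (5.55 and 81.4), Runx2 (91.1 and 222) and Ibsp (0.763 and 382). So were Bglap (0.348 and 1.8) and Phex (5.39 and 10.8), with a wide spread in treated cells (SD 2.06 and 8.62). Lower were Spp1 (1720 and 1230) and Dmp1 (2.95 and 0.751). Summed markers of other cell types at 0 μM and in treated cells were 17.5 to 30.2 and 31.8 to 62.8 CPM for 5 macrophage genes, where Lyz2 made up most and Ptprc had 0 and at most 12 counts, 2.02 to 2.37 and 4.17 to 8.24 CPM for 6 skeletal muscle genes, with Mymk at 0 everywhere, and 0.692 to 0.821 and 1.36 to 2.2 CPM for 4 endothelial genes. The corresponding sums were 1.9 to 2.11 and 2.08 to 4.29 CPM for 6 adipocyte genes, and 91.3 to 103 and 83.1 to 161 CPM for 4 chondrocyte genes. Des made up most of the muscle sum (means 1.78 and 5.28 CPM). Within sums, genes went different ways. Sox9 was higher in treated cells (39.0 and 76.2) and Col2a1 lower (58.1 and 47.7, SD 26.4), as Lyz2 was higher (22.0 and 46.4) and Cd68 lower (1.51 and 1.09). The part of other cell types in the IGF results was not tested, and in bulk RNA fewer cells of a type and less RNA per cell cannot be told apart.

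In the GENCODE M21 annotation of GRCm38, matched by Ensembl ID, Igf2 lay on the minus strand at chr7:142650766-142666816 and Igfbp5 on the minus strand at chr1:72857932-72874884. Igfbp2, on the plus strand at chr1:72824503-72852474, faced Igfbp5 across a gap of 5458 bp between their 3′ ends. The other genes were at chr10:87858265-87937042 (Igf1, plus), chr7:67952827-68233668 (Igf1r, plus), chr17:12682406-12769664 (Igf2r, minus), chr11:7206086-7213923 (Igfbp3, minus), chr11:99041244-99054392 (Igfbp4, plus), chr15:102144362-102149511 (Igfbp6, plus) and chr5:77349240-77408041 (Igfbp7, minus). The text does not state whether libraries kept strand, so reads of Igf1, Igf2, Igf2r and Igfbp7 cannot be told from those of the antisense genes Igf1os, Igf2os, Airn and Polr2b where these overlap. Polr2b, which overlaps Igfbp7, had at most 10798 counts at 0 μM and 10355 in treated cells. Gm49394, on the same strand as Igf2, had a row of its own with at most 40 counts at 0 μM and 483 in treated libraries.

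RefSeq lists 4 start windows for Igf2 and 1 for Igfbp5 (GRCm38.p6, 300 bases around each start), and these are printed because Igf2 and Igfbp5 rose most in FPKM, while the table gives Igf2 1 value per library for all its starts. All are written 5′ to 3′ on the minus strand, at chr7:142666767-142667066, chr7:142661222-142661521, chr7:142658755-142659054 and chr7:142657447-142657746 for Igf2 and at chr1:72874816-72875115 for Igfbp5. Capitals mark GC boxes (GGGCGG) and CCAAT boxes (CCAAT), each searched on both strands.
Igf2 window 1: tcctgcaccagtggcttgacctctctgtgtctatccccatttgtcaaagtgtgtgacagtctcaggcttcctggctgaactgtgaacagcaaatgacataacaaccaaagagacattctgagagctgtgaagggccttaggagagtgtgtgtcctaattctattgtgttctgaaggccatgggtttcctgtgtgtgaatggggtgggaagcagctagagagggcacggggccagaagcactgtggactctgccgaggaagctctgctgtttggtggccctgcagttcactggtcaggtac
Igf2 window 2: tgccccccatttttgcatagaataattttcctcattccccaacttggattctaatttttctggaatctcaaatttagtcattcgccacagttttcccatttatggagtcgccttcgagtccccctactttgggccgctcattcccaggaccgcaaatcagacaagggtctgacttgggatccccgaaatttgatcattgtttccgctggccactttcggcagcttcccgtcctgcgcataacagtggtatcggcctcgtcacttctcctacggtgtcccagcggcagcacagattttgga
Igf2 window 3: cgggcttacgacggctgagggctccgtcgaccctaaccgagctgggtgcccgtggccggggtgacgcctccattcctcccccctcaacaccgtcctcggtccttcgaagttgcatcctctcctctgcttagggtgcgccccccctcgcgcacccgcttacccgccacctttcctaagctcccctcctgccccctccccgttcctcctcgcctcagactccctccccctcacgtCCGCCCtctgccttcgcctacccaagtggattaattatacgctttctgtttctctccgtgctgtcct
Igf2 window 4: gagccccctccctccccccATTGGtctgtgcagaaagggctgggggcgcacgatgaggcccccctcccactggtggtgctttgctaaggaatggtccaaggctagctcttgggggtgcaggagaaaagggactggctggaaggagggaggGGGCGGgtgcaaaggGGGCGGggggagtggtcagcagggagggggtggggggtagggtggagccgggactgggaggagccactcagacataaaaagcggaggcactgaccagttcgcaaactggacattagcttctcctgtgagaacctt
Igfbp5: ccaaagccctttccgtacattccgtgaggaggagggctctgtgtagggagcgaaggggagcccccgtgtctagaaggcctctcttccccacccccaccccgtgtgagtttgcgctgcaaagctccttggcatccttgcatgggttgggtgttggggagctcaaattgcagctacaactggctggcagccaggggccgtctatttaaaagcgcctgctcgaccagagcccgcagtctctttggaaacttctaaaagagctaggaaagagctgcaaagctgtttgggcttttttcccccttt

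Among the 4 Igf2 windows, windows 3 and 4 held GC boxes (1 and 2) and window 4 a CCAAT box. Their GC content was 52.3%, 49.7%, 64.7% and 63.3%. The Igfbp5 window held neither box and was 56.3% GC. No TATA box (TATAAA) lay in these 5 windows, and of the 14 windows of the 10 genes only those of Igfbp4 and Igfbp6 held 1 each. The RUNX core (TGTGGT) was found only in the window of Igfbp3. Of all 32851 RefSeq windows, 35.7% held a GC box, 37.4% a CCAAT box, 13.6% a TATA box, 16.8% a RUNX core and 72.3% an E-box (CANNTG). The 14 windows had a median GC content of 64.0%, against 52.7% for all windows.

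The mixture of IGF transcripts in treated cells differed from that at 0 μM. Igf2 went from 1 and 52 counts to between 1521 and 14416 counts, Igfbp5 rose 15.2-fold (95% interval 6.61 to 34.8), Igfbp2 appeared at a low level, and Igfbp6 fell to 0.494 of its 0 μM level (0.397 to 0.616). In edgeR's quasi-likelihood test of the 6 treated against the 2 libraries at 0 μM, with day as a covariate, 9 of the 10 genes passed the filter on low counts. A gene was called at an adjusted p under 0.05 and a log2 fold change beyond 1. 3 members were called higher, where 13.4% of 16794 genes tested were, and 1 lower, where 5.98% were. Igf2 and Igfbp2 passed the filter only with the treated libraries, where they are high, so their calls depend on it. With 10 counts required in every library both were left untested. Then 1 member was called higher and 0 lower, where 8.28% and 5.55% of all genes were. The median log2 fold change of the 9 tested members was 0.63, against 0.05 for all genes. The labels state n = 3 for RNA extraction, yet each dose and day has 1 library, and whether a library pools cultures is not given. Doses therefore stand in for replicates, and p-values measure the spread between these libraries, which may be technical. With a 0 μM library left out, the treated effect comes from the other day alone, so such a fit repeats that day's contrast.

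**Figure D1:**
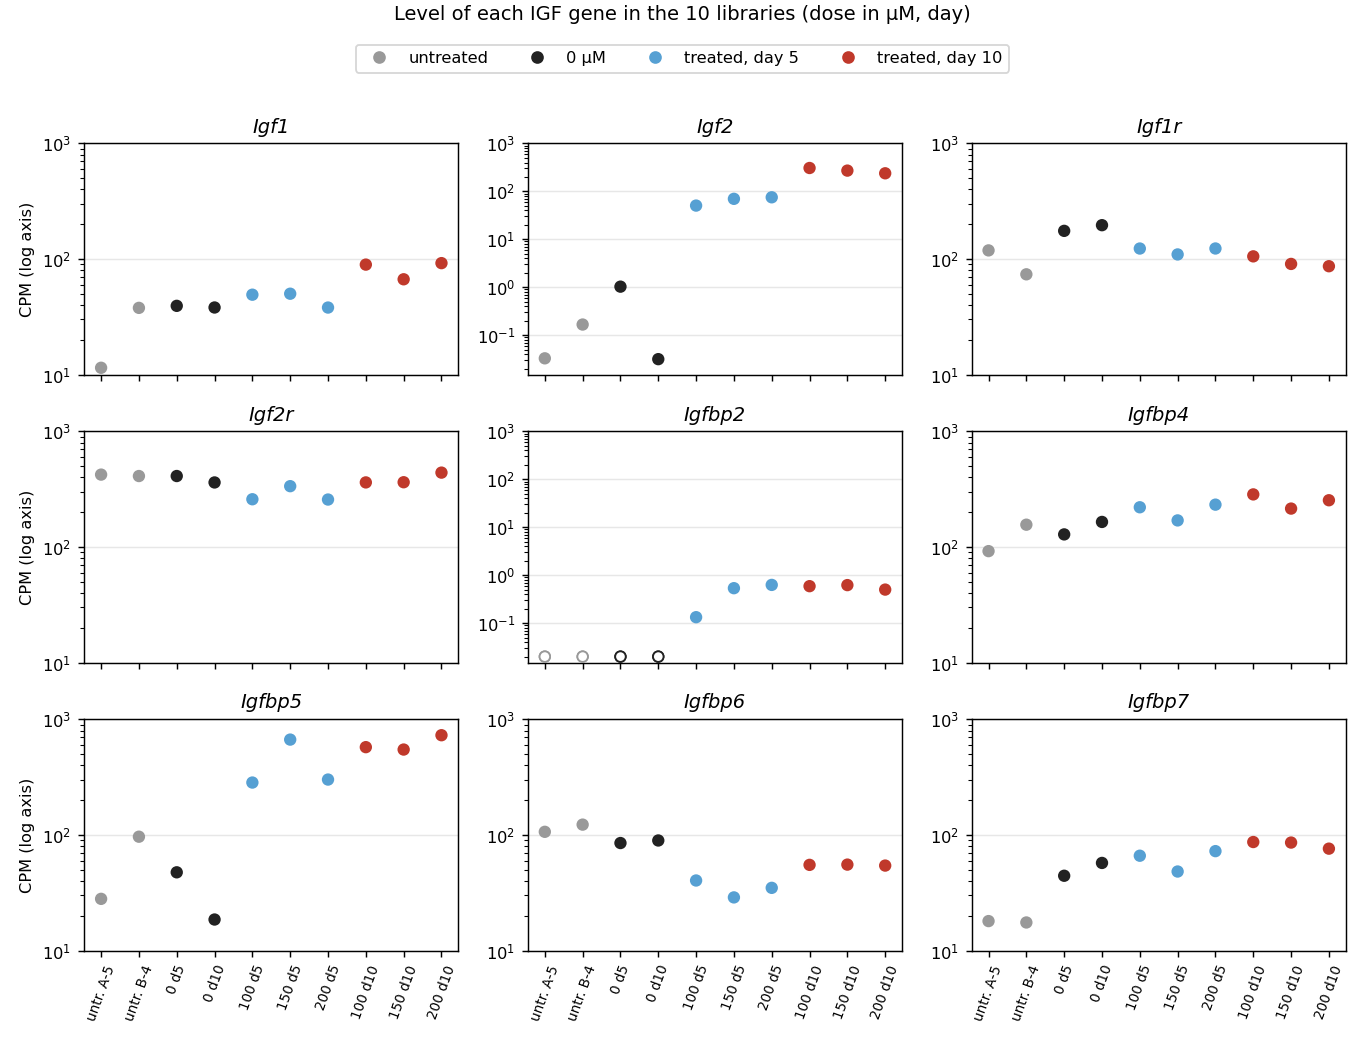
Level of 9 IGF genes (CPM, log axis) in each of the 10 libraries, 1 point per library, labelled by dose in μM and day. Open circles mark 0 counts and are drawn at the lower edge. Igf2 rose from 0.0316 to 1.03 CPM at 0 μM to 50.5 to 307 CPM in treated cells, and the Igfbp6 points of treated cells, 28.8 to 55.4 CPM, all lie below the others.

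Igf2, the ligand of fetal growth, had 52 counts at 0 μM on day 5 and 1 count on day 10. In treated cells of day 5 it had 50.5, 69.9 and 75.2 CPM at 100, 150 and 200 μM, against 1.03 CPM at 0 μM. In treated cells of day 10 it had 307, 271 and 238 CPM, against 0.0316 CPM. The 6 treated libraries all lay far above the 4 others, and those of day 10 above those of day 5. The ratio of mean CPM was 63.4 on day 5 (48.4 to 84.9, exact Poisson interval of the 0 μM count) and 8620 on day 10, where the single count leaves an interval of 1550 to 340000. Over both days the log2 fold change was 7.57 ± 0.77 (SE, edgeR, adjusted p = 5.9e-05), and with either 0 μM library left out it was 5.98 (without day 10) or 12.9 (without day 5, on the single count). The untreated libraries had 1 and 5 counts of Igf2, and set against them in place of 0 μM the log2 fold change was 10.7.

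Igf1, the growth factor that mediates much of the action of growth hormone, was present in every library. It had 39.4 and 38.1 CPM at 0 μM on days 5 and 10. In treated cells it had 49.2, 50.1 and 38.1 CPM on day 5 and 89.5, 66.8 and 92.2 CPM on day 10 at 100, 150 and 200 μM. The groups overlapped on day 5 and were separate on day 10, when Igf1 was called higher (log2 fold change 1.12 ± 0.22, adjusted p = 0.005 by edgeR). On day 5 the log2 fold change was 0.22 ± 0.21 (adjusted p = 0.48). Over both days Igf1 passed the adjusted p but not the fold limit, at 0.63 ± 0.21 (adjusted p = 0.034), but this rests on single libraries. Igf1 had 1.12 without the day 5 library at 0 μM and 0.21 without the day 10 library, which repeats the day values. Without the 100 or 150 μM library of day 5 or the 100 or 200 μM library of day 10 the adjusted p was 0.051 to 0.053. The untreated libraries differed, with 11.5 CPM in A-5 and 37.8 CPM in B-4.

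On the FPKM scale, which is per transcript length and allows levels of different genes to be compared, Igf2 made up 0.319% to 3.56% of the summed ligand FPKM at 0 μM. Its share was 58.7% to 72.3% in treated cells of day 5 and 77.8% to 85.6% in those of day 10. The summed ligand FPKM was 6.59 to 7.08 at 0 μM, 20.7 to 25.9 on day 5 and 72.8 to 80.4 on day 10 of treatment. Igf1 outweighed Igf2 in both libraries at 0 μM, and Igf2 outweighed Igf1 in all 6 treated libraries. The FPKM of Igf1 is not a fixed rescaling of its counts, as the length it implies ran from 5521 to 6873 bp between libraries.

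Igf1r, the signalling receptor, was lower in treated cells. It had 175 and 196 CPM at 0 μM on days 5 and 10. In treated cells it had 123, 110 and 123 CPM on day 5 and 105, 90.7 and 86.7 CPM on day 10 at 100, 150 and 200 μM. Every treated library lay below both at 0 μM. The log2 fold change over both days was -0.82 ± 0.12 (edgeR, adjusted p = 5.3e-04), inside the fold limit. It was -0.56 ± 0.14 on day 5 (adjusted p = 0.019) and -1.06 ± 0.14 on day 10 (adjusted p = 5.1e-04), when Igf1r was called lower. The untreated libraries had 119 and 73.8 CPM, overlapping the treated ones, and set against them the log2 fold change was 0.15 (adjusted p = 0.62), the opposite direction.

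Igf2r, the receptor that clears IGF2, had 411 CPM on day 5 and 362 CPM on day 10 at 0 μM. In treated cells it had 259, 336 and 257 CPM on day 5 and 362, 363 and 440 CPM on day 10 at 100, 150 and 200 μM. All 3 treated libraries lay below the 0 μM library on day 5. On day 10 those at 100 and 150 μM lay level with it in CPM and the one at 200 μM above it. In FPKM those at 100 and 150 μM lay below it on day 10 (33.46 and 34.85 against 37.02) and the one at 200 μM above it (43.57). On day 5 the more deeply sequenced 150 μM library stood above the others. Neither difference passed the test, with log2 fold changes of -0.53 ± 0.18 on day 5 (edgeR, adjusted p = 0.061) and 0.10 ± 0.19 on day 10 (adjusted p = 0.72). By DESeq2 (-0.52) and with the filter of 1 count in total (-0.55) the day 5 value passed the adjusted p. It also did so without the 150 μM library of day 5 (-0.66). These values lay inside the fold limit. Over both days the value was -0.23 ± 0.16, with a 95% interval of -0.59 to 0.13.

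Of the 6 binding proteins, Igfbp5, which binds to bone matrix and is made by osteoblasts, rose most in FPKM. It had 47.5 and 18.5 CPM at 0 μM on days 5 and 10. In treated cells it had 284, 668 and 301 CPM on day 5 and 575, 548 and 729 CPM on day 10 at 100, 150 and 200 μM. The groups did not overlap, and the log2 fold change was 3.92 ± 0.54 (edgeR, adjusted p = 3.3e-04), or 3.13 and 5.05 with the 0 μM library of day 10 or day 5 left out. The ratio of mean CPM was 8.79 on day 5 and 33.3 on day 10. The untreated libraries had 28.0 CPM in A-5 and 96.5 CPM in B-4, and against these the log2 fold change was 3.05. On day 5 the 150 μM library, which has 57220036 counts where the other treated libraries of that day have 29637936 and 29833654, had 668 CPM against a mean of 293 CPM in the others. A fit with depth class as a covariate, chosen after the data were seen, gave 4.02.

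Igfbp6, which prefers IGF2 over IGF1, was the member called lower over both days. It had 85.1 and 89.5 CPM at 0 μM and 106 and 123 CPM in the untreated libraries. In treated cells it had 40.4, 28.8 and 34.9 CPM on day 5 and 55.1, 55.4 and 54.3 CPM on day 10 at 100, 150 and 200 μM. No treated library reached any of the 4 others. The log2 fold change was -1.02 ± 0.14 (edgeR, adjusted p = 3.7e-04), close to the fold limit, with -1.30 ± 0.16 on day 5 and -0.71 ± 0.16 on day 10 (adjusted p = 0.010), inside the limit on day 10. Without the day 5 library at 0 μM the value was -0.71, which is that of day 10 again. Igfbp6 was no longer called when the 150 μM library of day 5 was left out (-0.93).

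Igfbp2 and Igfbp3 were near or at 0. Igfbp2 had 0 counts at 0 μM and in both untreated libraries. Treated cells had 4, 32 and 19 counts on day 5 and 15, 33 and 26 counts on day 10 at 100, 150 and 200 μM. Set against 3 counts in the 0 μM library, its mean CPM was at least 7.28-fold higher on day 5 and at least 6.02-fold higher on day 10, and edgeR called it higher (adjusted p = 0.0018). By limma on log2(FPKM + 1) the difference was 0.40 and Igfbp2 was not called. Igfbp3, the main carrier of IGFs in serum, had 0 counts in 9 libraries and 3 counts at 150 μM on day 5, so that it did not pass the filter.

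Igfbp4 and Igfbp7 shifted by less than the fold limit. Igfbp4, an inhibitory binding protein cleaved by the protease PAPP-A, had 128 and 165 CPM at 0 μM and 170 to 285 CPM in treated cells, with no overlap and a log2 fold change of 0.65 ± 0.15 (edgeR, adjusted p = 0.0057, or 0.057 without the day 5 library at 0 μM). Igfbp7, which binds IGFs weakly and insulin, had 44.4 and 57.2 CPM at 0 μM and 48.3 to 86.8 CPM in treated cells, which overlapped, with a log2 fold change of 0.51 ± 0.14 (adjusted p = 0.017, or 0.084 and 0.13 without the 0 μM library of day 5 or day 10). In the untreated libraries Igfbp7 stood at 18.0 and 17.5 CPM. Set against them in place of 0 μM it was called higher at 2.03 (adjusted p = 0.0014), and with them added to 0 μM at 1.09.

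**Figure D2:**
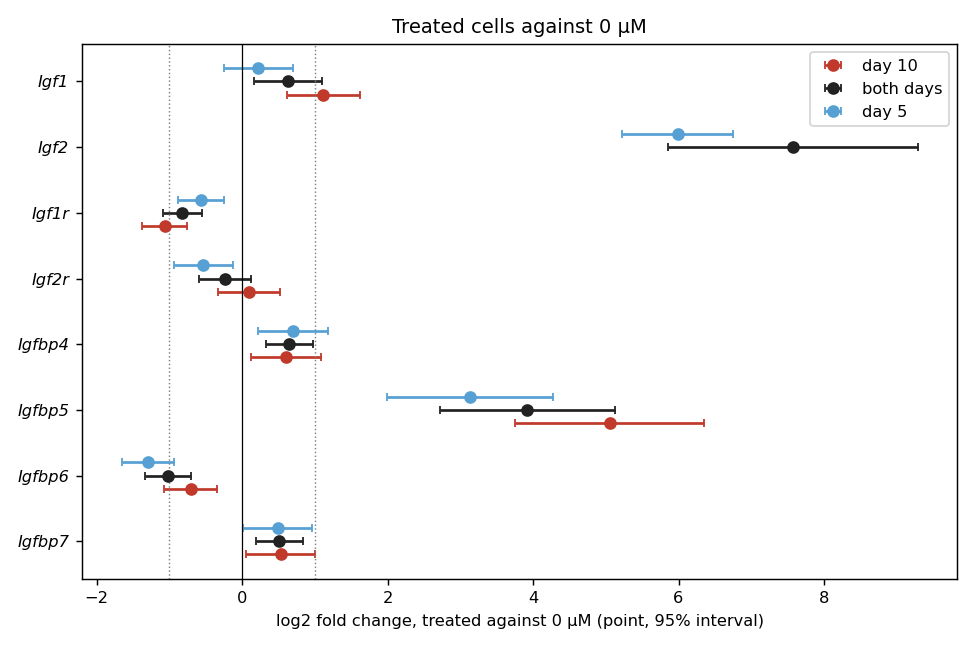
Log2 fold change of treated cells against 0 μM (x axis, point with 95% interval of the edgeR fit) for 8 IGF genes, on day 5, day 10 and over both days. Dotted lines mark the fold limit. Igf2 on day 10 is left out because 0 μM had 1 count, and Igfbp2 because 0 μM had none. Igfbp5 lies at 3.14 on day 5 and 5.05 on day 10, and Igfbp6 lies to the left of 0 at every time.

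Counted without a test, 4 members (Igf2, Igfbp2, Igfbp4 and Igfbp5) were higher in every treated library than in both at 0 μM and 2 (Igf1r and Igfbp6) were lower, where 27.0% and 25.7% of all genes tested were. Against the 2 untreated libraries, 6 members were higher and 1, Igfbp6, lower in every treated library, where 18.0% and 15.4% of genes were. Within days, 3 members (Igf2, Igfbp2 and Igfbp5) were called higher and 1 (Igfbp6) lower on day 5, against 9.5% and 4.57% of genes. On day 10, 4 (those and Igf1) were called higher and 1 (Igf1r) lower, against 12.1% and 6.12%. These day tests rest on 1 library at 0 μM each, whose spread is assumed to be that of the treated libraries.

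The order of levels changed with treatment on the FPKM scale. At 0 μM the highest was Igfbp6 (71.4 ± 2.69 FPKM, SD, n = 2), followed by Igfbp7 (41.0), Igf2r (39.5) and Igfbp4 (34.8), whose ranges overlapped in turn. Below them came Igf1r (14.8), then Igf1 (6.70) and Igfbp5 (4.99), which overlapped, and last Igf2 (0.137). In treated cells of day 10 the highest was Igfbp5 (87.7 ± 16.5 FPKM, SD, n = 3), clear of Igf2 (62.4), Igfbp7 (62.0) and Igfbp4 (55.8), which overlapped. Igfbp6 (42.1) and Igf2r (37.3) overlapped, and Igf1 (13.0), Igf1r (7.02) and Igfbp2 (0.359) followed with separate ranges. In treated cells of day 5, Igfbp5 (63.3 ± 34.3), Igfbp7 (49.7) and Igfbp4 (48.9) overlapped, then came Igf2r (28.9) and Igfbp6 (28.1), also overlapping, and Igf2 (15.9), Igf1r (9.39), Igf1 (7.98) and Igfbp2 (0.287) were separate.

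Binding protein transcripts were 143 to 161 FPKM in sum at 0 μM and 178 to 268 FPKM in treated cells. Igfbp6 made up 45.4% to 48.5% of that sum at 0 μM and 11.5% to 18.3% in treated cells. Igfbp5 made up 1.74% to 5.01% and 23.7% to 49.5%. The shares of Igfbp4 (21.3% to 24.3% at 0 μM, 19.8% to 29.3% treated) and Igfbp7 (25.2% to 28.5%, 18.9% to 31.2%) overlapped between the groups.

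**Figure D3:**
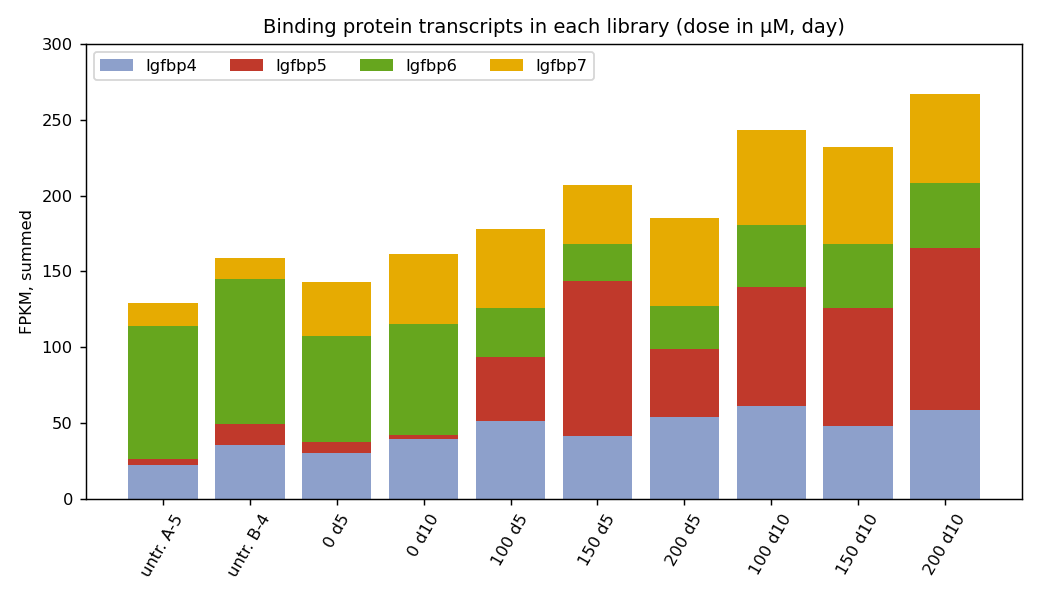
Summed FPKM of Igfbp4, Igfbp5, Igfbp6 and Igfbp7 in each library (stacked bars from 0, dose in μM and day on the x axis). Igfbp2 and Igfbp3 are too low to show. The Igfbp5 band grows from 2.81 and 7.18 FPKM at 0 μM to 42.1 to 107 FPKM in treated cells, while the Igfbp6 band shrinks from 69.4 and 73.3 to 24.0 to 43.0 FPKM.

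From day 5 to day 10 of treatment, compared without any 0 μM library, Igf2 rose 4.18-fold (log2 fold change 2.06 ± 0.16, edgeR, adjusted p = 0.0013, n = 3 against 3). It was the only member called, where 0.905% of 16020 genes were called higher and 0.144% lower. Igf1 (0.85 ± 0.15, adjusted p = 0.022) and Igfbp6 (0.67 ± 0.12, adjusted p = 0.024) passed the adjusted p but not the fold limit. The other 6 tested members did not pass, with log2 fold changes from -0.33 (Igf1r) to 0.56 (Igfbp5, 95% interval -0.10 to 1.22). Without the 150 μM library of day 5, Igfbp5 was called higher at 1.08 (adjusted p = 0.014). In 5 members every library of day 10 exceeded every library of day 5, in 1 (Igf1r) all were lower, and in 4 the days overlapped, where 12.3% of all genes tested were higher in this way and 10.6% lower.

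**Figure D4:**
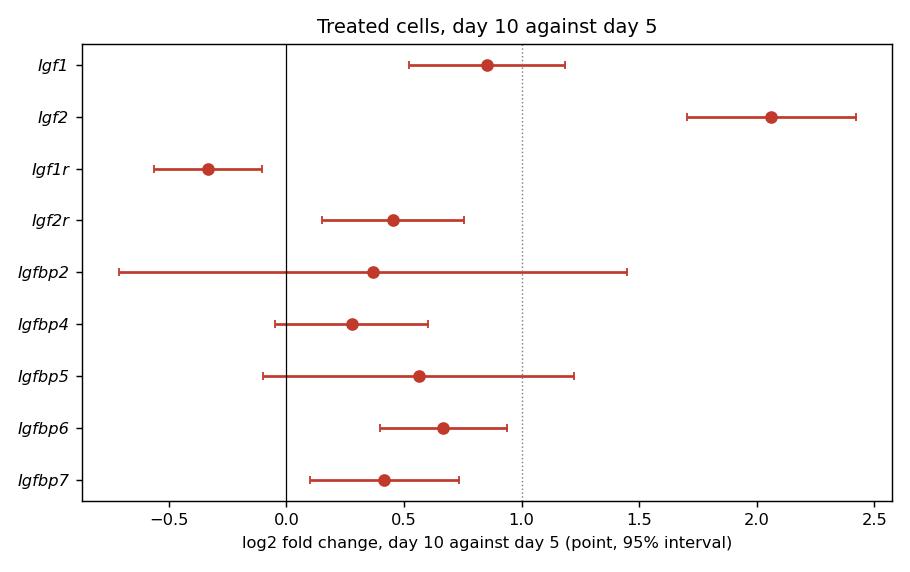
Log2 fold change of day 10 against day 5 in treated cells (x axis, point with 95% interval of the edgeR fit, 3 libraries a day) for 9 IGF genes, with a dotted line at the fold limit. Igf2 stands at 2.06, to the right of the line, and the intervals of Igfbp2, Igfbp4 and Igfbp5 cross 0.

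The test of whether the treatment effect itself differed between the days, which shares the 0 μM libraries with the comparisons above, called 0 members by edgeR (2 genes or 0.0119% of all genes, 1395 at an unadjusted p under 0.05). DESeq2 called 1 member, Igf2, among 55 genes higher and 25 lower. For Igf2 the difference was 6.95 ± 0.84 on the log2 scale (edgeR, adjusted p = 0.071, DESeq2 0.0019) and rests on the 1 count at 0 μM on day 10. The next largest were Igfbp5 at 1.91 (adjusted p = 0.48) and Igf1 at 0.89 (adjusted p = 0.50). Igf2r, with fitted effects of -0.53 on day 5 and 0.10 on day 10, had a difference of 0.63 (95% interval 0.03 to 1.23, adjusted p = 0.57).

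No trend with dose from 100 to 200 μM was called for any member by edgeR (0 genes, 0.0% of 16020, 380 at an unadjusted p under 0.05, and 1 gene higher and 1 lower by DESeq2). The slopes per 100 μM ran from -0.15 (Igf1) to 0.67 (Igfbp2) on the log2 scale. For Igf2 the slope was 0.08 with a 95% interval of -0.38 to 0.54. For Igfbp5 it was 0.23 with an interval of -0.67 to 1.14, so neither a rise nor a fall with dose is bounded closely. The fit has 1 slope for both days. Igf2 rose from 100 to 200 μM on day 5 (50.5, 69.9 and 75.2 CPM) and fell on day 10 (307, 271 and 238 CPM), which 1 slope averages.

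The other genes of the IGF and insulin family were few in these cells. Of 11 listed, 10 had a row, and Igfbp1, Igfbpl1, Ins1 and Ins2 had 0 counts in every library. 5 were tested and 1 was called higher (13.4% of all genes), Igfals, the acid-labile subunit of circulating IGF complexes (7.34 ± 3.93 CPM, SD, n = 6, against 0.415 and 0.221 CPM at 0 μM, log2 fold change 4.14 ± 0.44). Igfals was also called higher on both days. It had 21 and 7 counts at 0 μM on days 5 and 10. Like Igf2 and Igfbp2, it passed the filter only with the treated libraries, where it is high, so these calls depend on it. In treated cells alone Igfals rose by 1.54 on the log2 scale from day 5 to day 10 (edgeR, adjusted p = 0.0037). The median log2 fold change of the 5 was -0.40, against 0.05 for all genes, and the list held 0 genes called lower. Insr, the insulin receptor, had 0.40 and the mRNA-binding proteins Igf2bp1, Igf2bp2 and Igf2bp3 had -0.50, -0.59 and -0.40, all inside the fold limit.

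Among 10 proteases of the binding proteins and their inhibitors, 8 were tested and 3 called higher, with 0 lower (13.4% and 5.98% of all genes) and a median log2 fold change of 0.55, against 0.05 for all genes. Adam12, a metalloprotease that cleaves IGFBP3 and IGFBP5, went from 10.9 and 11.4 CPM at 0 μM to 76.3 ± 6.06 CPM (log2 fold change 2.77 ± 0.09). Pappa, the IGFBP4 protease PAPP-A, went from 22.3 and 21.1 to 58.8 ± 3.06 CPM (1.43 ± 0.09). Htra1, a serine protease, had 14.5 and 8.69 CPM at 0 μM and 27.3 ± 10.2 CPM in treated cells (1.12 ± 0.34, adjusted p = 0.023). On day 10, 4 genes of the list were called higher and 2 lower (12.1% and 6.12% of all genes), the latter being Pappa2 (-1.03) and Plau (-1.23), which encodes urokinase.

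Of 34 genes that act below the IGF1 receptor, all were tested, 4 were called higher and 2 lower, with a median log2 fold change of -0.09, against 0.05 for all genes. These shares are close to the 13.4% and 5.98% of all genes. Socs2, a feedback inhibitor of growth hormone signalling, rose most (100 ± 13.1 CPM against 26.8 and 20.7 CPM, log2 fold change 2.06 ± 0.16). Pik3r1, the p85α regulatory subunit of PI3 kinase, rose by 1.63 ± 0.11 and Grb10, an adaptor that inhibits the receptor, by 1.53 ± 0.19. Socs3, a feedback inhibitor of cytokine signalling, fell by 1.57 ± 0.14. Pik3cb, a catalytic subunit of PI3 kinase, was also called lower (-1.42). The kinases Akt1 and Akt2 had -0.26 and -0.02, inside the limit.

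Across the 10 libraries, the genes whose log2 CPM followed Igf2 most closely among 10393 genes were Agrn, Tgfb2 and Rai14 (Pearson's r 0.982, 0.981 and 0.98). Those closest to Igfbp6 included Narf and Dynlt1b (0.968 and 0.961). The coefficients are descriptions over 10 libraries that share dose groups and days. Agrn went from 79.3 and 75.4 CPM at 0 μM to means of 141 and 162 CPM on days 5 and 10 of treatment, a far smaller step than that of Igf2, and Narf went from 51.5 and 46.4 to 15.4 and 24.3 CPM.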

How the data were processed

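MC3T3-E1 cells were cultured with or without β-ecdysterone, poly(A) RNA was prepared with a TruSeq kit, and 10 libraries were sequenced. The authors deposited 1 table with raw counts of reads per gene, not normalized, and with FPKM values per gene, for 22036 Ensembl genes and 7547 newly assembled loci. The submitters' processing notes name HISAT2 2.0.4 and GATK 3.2-2 with no role. The counting program, genome build and annotation version are not given in the sources used here. Columns of edgeR comparisons between single libraries in the same table were not used.

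Counts were analysed with edgeR 4.0.16 (TMM, filterByExpr, quasi-likelihood test), with DESeq2 1.42.0 and limma 3.58.1 on log2(FPKM + 1) as alternatives, in R 4.3.3. All genes were fitted and p-values adjusted by Benjamini-Hochberg. Intervals are 95%. The tests were also run on simulated counts with known changes in far fewer genes than here. Those counts were drawn independently per library, so they do not cover doses that stand in for replicates. Untreated libraries entered only alternatives, since the labels give them no time. Other alternatives were the scaling, the low-count filter, the day covariate, the fold limit, dose as a replicate block and each library left out. A covariate for libraries with over 40000000 counts was added after the data were seen. The text names the 10 members, from each gene list at most the 4 largest changes called in a comparison, and the 3 genes most like the member with the largest rise and the one with the largest fall. Pappa2, Pik3cb, Insr, the Igf2bp genes, Akt1 and Akt2 were named outside this rule, after their values were seen. The members and lists were chosen with earlier results of these data known. The gene H19 was not analysed here, and some genes of the lists that are counted are not reported here by name.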

Additional observations from a re-analysis of the deposited data

Results flagged for a closer look

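Igfbp2 at 100 μM on day 5, at 0.133 CPM (4 counts), stood far below the other 5 treated libraries, which had 0.50 to 0.63 CPM. Igf2r lay below the 0 μM library in all 3 treated libraries of day 5. On day 10 it lay level with the 0 μM library in CPM at 100 and 150 μM and above it at 200 μM. In FPKM it lay below the 0 μM library of day 10 at 100 and 150 μM. The difference of the effects, 0.63 on the log2 scale, did not pass the edgeR test (adjusted p = 0.57).

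In the untreated libraries, which no main comparison uses, some levels exceeded both libraries at 0 μM. Igf2r had 423 CPM in A-5, Igfbp5 had 96.5 CPM in B-4, and Igfbp6 had 106 CPM in A-5 and 123 CPM in B-4.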

How the results depend on the processing

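For treated cells against 0 μM, the calls of Igf2, Igfbp2 and Igfbp5 were made under DESeq2, its size factors in edgeR, scaling by library totals, the filter of 1 count in total, no day covariate, both uses of the untreated libraries, the depth covariate and every library left out. The filter of 10 counts in every library left Igf2 and Igfbp2 untested, so that 1 member was called higher and 0 lower (8.28% and 5.55% of all genes), and no fold limit gave 6 higher and 2 lower (22.6% and 20.8% of all genes). Without the day covariate 0 were called lower, and with 1 library left out 0 to 1. Igf1r had 0.15 against the untreated libraries. Without the 0 μM library of day 5, which leaves the day 10 contrast alone, Igf1 had 1.12 and Igf1r -1.06. With 1 library left out, Igf2r ran from -0.54 to 0.10 (without the 0 μM library of day 5).

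For the difference between days, DESeq2 called 1 member higher, the filter of 1 count 2, and leaving out 1 library 0 to 1. Igf2 was called without the 100 μM library of either day (adjusted p = 0.024 for day 5 and 0.048 for day 10). Igfbp4 ran from -0.22 to 0.014 and Igfbp7 from -0.12 to 0.17 with 1 library left out, and Igfbp7 had -0.046 with library totals. For day 10 against day 5, 1 to 2 members were called higher with 1 library left out and 3 without the fold limit (2.08% of all genes), and Igfbp2 ran from -0.019 to 0.66. With dose as a replicate block, which pairs the days by dose, 1 member was again called higher (Igf2, 2.07) and no call changed. Slopes per 100 μM with 1 library left out crossed 0 for Igf1 (-0.47 to 0.04), Igf2 (-0.26 to 0.37), Igf2r (-0.0085 to 0.37), Igfbp2 (-0.11 to 1.46), Igfbp4 (-0.29 to 0.15), Igfbp5 (-0.15 to 0.74), Igfbp6 (-0.22 to 0.085) and Igfbp7 (-0.34 to 0.098, and 0.010 with library totals). The causes were not tested. With 1 library per dose and day, effects of a dose and of a library cannot be told apart.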
